A study of Homo sapiens with 6 samples.

Results

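The genes described here encode parts of the actin and myosin contractile apparatus that are best known from smooth muscle: the transgelin TAGLN, the calponins CNN1, CNN2 and CNN3, the actins ACTA2 and ACTG2, the regulatory myosin light chain MYL9, the tropomyosins TPM1 and TPM2, and the light chain kinase MYLK. They were chosen by symbol, and all 10 were found among the 60483 gene identifiers of the series. Their levels after FTO siRNA were known when they were chosen, so their values in that contrast are given as a description. Where the fit over all genes placed any of them past its threshold, that too is a description and supports nothing. RNA was sequenced from HepG2, a human hepatocellular carcinoma cell line. The cells had been transfected with control siRNA in 3 libraries and with siRNA against FTO, an RNA demethylase that removes the methyl group from N6-methyladenosine, in the other 3. Both groups share the cell line and the transfection. The labels name no siRNA sequence, dose or harvest time and do not say whether replicate libraries were grown apart. Every p-value therefore measures only the spread between these libraries, which may be technical.

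In smooth muscle, calcium and calmodulin activate MYLK, which phosphorylates the regulatory light chain and lets myosin pull on actin filaments. Tropomyosins, calponins and transgelin lie along those filaments and stabilise them or restrain the motor. Many of these genes carry CArG boxes, short elements bound by serum response factor (SRF), whose cofactors of the myocardin family respond to the pool of unpolymerised actin. Epithelial and liver cells normally use the nonmuscle forms of the same proteins, and some smooth muscle forms appear in cells that build stress fibres.

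The CArG box consists of 2 C bases, 6 bases that are each A or T, and 2 G bases, and it reads the same way on both strands. It was searched in RefSeq promoter windows of build GRCh38.p14, each covering 250 bases before and 50 bases after a start site. The table held 11 windows for 8 of the 10 genes, without TAGLN and MYL9. A CArG box occurred in 3 of these 8 genes, CNN2, ACTG2 and MYLK, and in 1.6% of all 27305 genes in the table. By window it occurred in 3 of 11, and in 1.29% of all 35116 windows. ACTA2 had no exact box but held 2 CArG-like elements with 1 mismatch, a class found in 2 of the 8 genes, in 21.3% of all genes and in 17.9% of all windows. No CArG box overlapped a CArG-like element in these genes. The 4 stretches that hold these elements are shown because they differ between genes whose levels are compared below, and the capitals mark the elements. CNN2 lies at chr19:1026489-1026558 on the plus strand, ACTA2 at chr10:88952805-88952924 on the minus strand, ACTG2 at chr2:73892868-73892974 on the plus strand and MYLK at chr3:123620603-123620672 on the minus strand.
CNN2: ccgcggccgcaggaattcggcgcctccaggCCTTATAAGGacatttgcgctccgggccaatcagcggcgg
ACTA2: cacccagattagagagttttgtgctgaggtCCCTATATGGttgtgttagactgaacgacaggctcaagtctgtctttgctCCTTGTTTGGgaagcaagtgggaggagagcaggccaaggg
ACTG2: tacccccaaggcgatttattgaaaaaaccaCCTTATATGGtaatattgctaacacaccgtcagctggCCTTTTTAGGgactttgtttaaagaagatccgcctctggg
MYLK: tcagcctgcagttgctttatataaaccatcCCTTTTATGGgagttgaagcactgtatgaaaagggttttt

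The boxes sat between 110 and 64 bases before the start site in ACTG2, between 89 and 80 in CNN2 and between 94 and 85 in MYLK. ACTG2 also held a CArG-like element between 239 and 230 bases before its start. A match describes the letters only. Each window covers 1 start site, while the counts are for the whole gene. MYLK had 1 window, and whether its start site gives the transcripts counted here was not tested. Of the genes with a box, ACTG2 and CNN2 had higher means after FTO siRNA, and MYLK had a lower mean. In the edgeR quasi-likelihood test CNN2 (adjusted p = 0.416) and MYLK (0.0559) were not past the threshold. Whether the box bears on these levels was not tested. No match in the windows of CNN1, CNN3, TPM1 and TPM2 says only that these letters are not there.

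**Figure D1:**
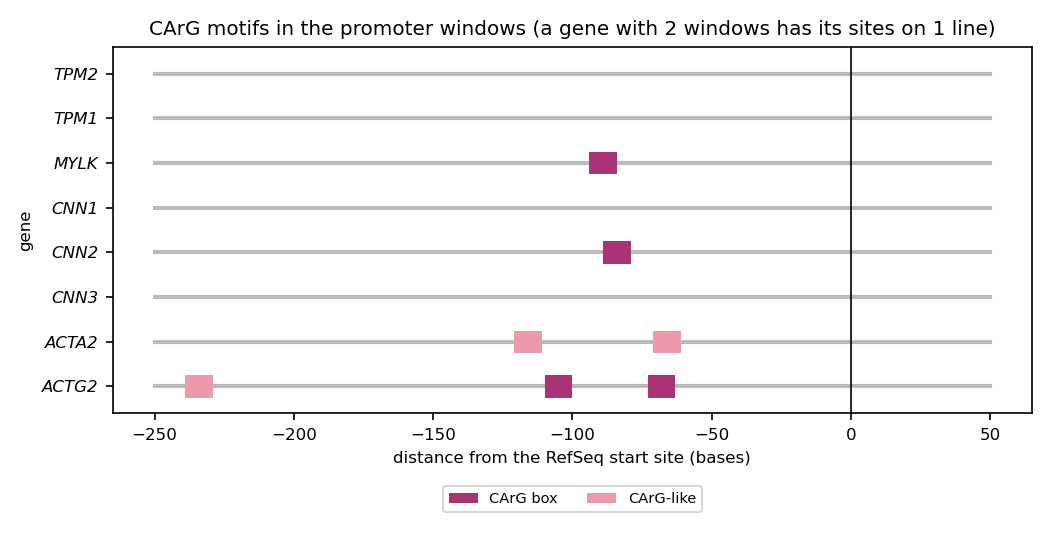
Position of CArG boxes (dark) and CArG-like elements with 1 mismatch (light) in the RefSeq promoter windows of 8 genes, with the distance from the start site in bases on the horizontal axis. ACTG2, CNN2 and MYLK hold a box within 110 bases before the start site, and the lines of CNN1, CNN3, TPM1 and TPM2 are empty.

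The libraries held between 15713279 and 18390953 counts assigned to genes. Levels are given as CPM, counts scaled to library size with TMM factors, and log2 fold changes compare FTO siRNA with control siRNA. FTO itself (ENSG00000140718.17, chromosome 16) stood at 40.8, 37.96 and 38.8 CPM in the controls and at 11.2, 14.4 and 5.21 CPM after FTO siRNA, a log2 fold change of -1.93 ± 0.32 (SE). FTO siRNA 3 had the lowest FTO level and the most genes with a count, 27140 against 24814 and 24927 in the other FTO siRNA libraries and 22990 to 23339 in the controls. It was also the deepest library, with 18390953 counts against 16957438 in FTO siRNA 1 and 16407912 in FTO siRNA 2. The part of depth in the number of genes with a count was not tested. Over all 15025 genes tested, the median log2 fold change was 0.04, and 1132 genes rose and 575 fell at an adjusted p under 0.05 (edgeR quasi-likelihood test with Benjamini-Hochberg adjustment). No 2 libraries of a group agreed within sampling noise, with a chi-square per degree of freedom between 8.45 and 118.

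Taken as a group, the 10 genes made up between 0.108% (control 1) and 0.168% (control 3) of all counts in the controls. Their share was 0.324% in FTO siRNA 1, 0.245% in FTO siRNA 2 and 0.132% in FTO siRNA 3. FTO siRNA 1 and FTO siRNA 2 thus lay above every control, and FTO siRNA 3 lay inside the control range. Of the 9 genes that passed the filter on low counts, 3 (TAGLN, CNN1 and ACTG2) were past the threshold as higher, where 7.53% of all genes tested were. ACTG2 passed the filter only through the FTO siRNA libraries, and at 1 CPM or more in 3 libraries it was not tested, which left 2. No gene was past it as lower, where 3.83% of all genes were; 1 was lower at an unadjusted p under 0.05, DESeq2 called 1 lower and limma-voom none. Since the genes were chosen with this contrast known, nothing is read from these counts. In bulk RNA, fewer cells of a type and less RNA per cell cannot be told apart.

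The groups of libraries did not overlap for 4 of the 10 genes. CNN1, ACTA2 and ACTG2 were higher in every FTO siRNA library than in every control, and MYLK was lower in every one. Among all genes tested, the groups stood apart for 36.5%, as higher for 19.2% and as lower for 17.4%. ACTA2 was not among the genes tested. Since the 10 genes were chosen with this contrast known, nothing is read from this count either. The remaining 6 genes, TAGLN, MYL9, TPM1, TPM2, CNN2 and CNN3, overlapped, and for 5 of them the overlap came from FTO siRNA 3 alone.

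**Figure D2:**
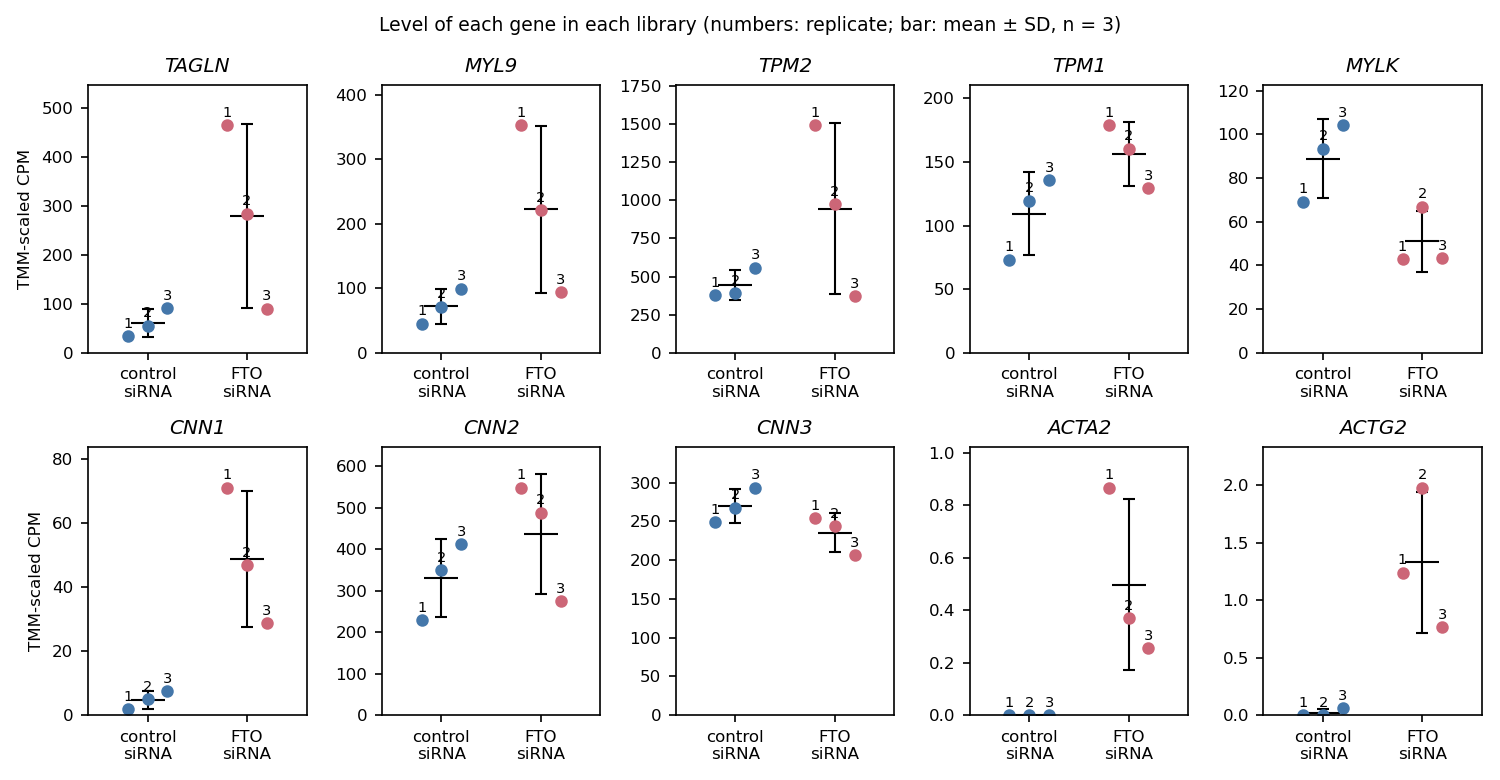
TMM-scaled CPM of each of the 10 genes (vertical axes, each from 0) in the 3 control siRNA and 3 FTO siRNA libraries, with points numbered by replicate and bars for the mean ± SD (n = 3). FTO siRNA 1 is the highest FTO siRNA library in 8 panels, and FTO siRNA 3 lies below control 3 for TAGLN, MYL9, TPM2, TPM1 and CNN2.

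The actins form the thin filament. ACTA2 (ENSG00000107796.11, chromosome 10), the alpha actin of vascular smooth muscle and of activated myofibroblasts, had 0 counts in each control and 14, 6 and 5 counts in FTO siRNA 1, 2 and 3. It was below the filter and not tested. Taken over the group, against a floor of 3 counts in each control (9 in all), the FTO siRNA libraries were at least 2.61-fold higher. ACTA2 overlaps STAMBPL1 on the opposite strand, which had 0 to 9 counts in a library. As the use of strand in counting is not known, reads from a shared stretch cannot be assigned to either. ACTG2 (ENSG00000163017.12, chromosome 2), the gamma actin of visceral smooth muscle, had 0, 0 and 1 counts in the controls and 20, 32 and 15 after FTO siRNA, a ratio of 62.9 with a 95% counting interval from 10.9 to 2523. Both smooth muscle actins stayed at 1.98 CPM or less in every library. Per kilobase of exon, ACTG2 averaged 0.348 CPM after FTO siRNA, whereas the cytoplasmic beta actin ACTB averaged 1733 CPM.

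Tropomyosins wrap the actin filament and set which myosins can reach it. TPM2 (ENSG00000198467.12, chromosome 9), the beta tropomyosin, stood at 378, 393 and 557 CPM in the controls and at 1492, 974 and 374 CPM in FTO siRNA 1, 2 and 3. It was the most abundant of the 10 genes in every library, and FTO siRNA 3 was below all 3 controls while the other FTO siRNA libraries were above them. The means were 442.9 ± 99.5 and 946.5 ± 560 CPM (SD, n = 3), and the log2 fold change was 1.10 ± 0.43 (SE). TPM1 (ENSG00000140416.18, chromosome 15), the alpha tropomyosin, stood at 73.2, 119 and 136 CPM in the controls and at 179, 160.3 and 129 CPM after FTO siRNA, with a log2 fold change of 0.51 ± 0.24. Its FTO siRNA 3 value was below control 3, so the groups overlapped there too.

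Transgelin, also called SM22 alpha, binds and bundles actin. TAGLN (ENSG00000149591.15, chromosome 11) stood at 34.3, 55.3 and 91.3 CPM in controls 1, 2 and 3 and at 464, 284 and 90.03 CPM in FTO siRNA 1, 2 and 3. The controls differed among themselves 2.66-fold and the FTO siRNA libraries 5.16-fold, and FTO siRNA 3 was just under control 3. The means were 60.3 ± 28.8 and 279 ± 187 CPM, a ratio of 4.63, with a log2 fold change of 2.21 ± 0.56. TAGLN was past the threshold with all 6 libraries but lost that when any single library other than FTO siRNA 3 was left out, and its log2 fold change ranged from 1.62 to 2.61 with each library left out in turn. It was not past the threshold with limma-voom either. On the opposite strand TAGLN overlaps PCSK7, which had 420 to 591 counts in a library where TAGLN had 542 to 7489. No source used here says whether counting used strand, so reads from the shared stretch cannot be assigned to either.

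The 3 calponins, which bind actin and in smooth muscle slow the myosin motor, are given in turn. CNN1 (ENSG00000130176.6, chromosome 19), the smooth muscle form, stood at 1.90, 4.93 and 7.49 CPM in the controls and at 71.1, 46.8 and 28.8 CPM in FTO siRNA 1, 2 and 3. Every FTO siRNA library was above every control, and CNN1 had the highest log2 fold change of the 8 genes with a count in every library, 3.35 ± 0.48. The means were 4.77 ± 2.8 and 48.9 ± 21.2 CPM, a ratio of 10.2. With each library left out in turn the log2 fold change ranged from 2.94 to 3.80. CNN2 (ENSG00000064666.13, chromosome 19), a form found in many nonmuscle cells, stood at 228, 349.8 and 413 CPM in the controls and at 548, 488 and 274 CPM after FTO siRNA, a log2 fold change of 0.40 ± 0.30. CNN3 (ENSG00000117519.14, chromosome 1), the acidic form, stood at 249, 268 and 294 CPM in the controls and at 254, 244 and 207 CPM after FTO siRNA, a log2 fold change of -0.20 ± 0.15. For CNN2 and CNN3 the groups overlapped. Whether the calponins differ in their response was not tested.

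MYL9 encodes the regulatory light chain of smooth muscle and nonmuscle myosin, the substrate of MYLK. MYL9 (ENSG00000101335.8, chromosome 20) stood at 45.05, 71.7 and 99.2 CPM in the controls and at 352, 221 and 93.6 CPM in FTO siRNA 1, 2 and 3. It repeated the order of TAGLN in all 6 libraries, with FTO siRNA 3 between controls 2 and 3. The means were 72.0 ± 27.1 and 222 ± 129 CPM, a ratio of 3.09, with a log2 fold change of 1.63 ± 0.45. MYL9 was not past the threshold with all 6 libraries, but it was with upper quartile factors, without a low count filter and with DESeq2. MYLK (ENSG00000065534.17, chromosome 3) went the other way, at 69.1, 93.5 and 104 CPM in the controls and 42.8, 66.96 and 43.2 CPM after FTO siRNA. Its highest FTO siRNA library lay just below its lowest control, and the log2 fold change was -0.80 ± 0.23. MYLK was past the threshold as lower when FTO siRNA 2 was left out (log2 fold change -1.07) and when FTO siRNA 3 was left out (-0.72), with DESeq2 and without a low count filter, but not with all 6 libraries in the edgeR fit used here.

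Leaving out FTO siRNA 3 also put CNN2, MYL9 and TPM2 past the threshold, so that 6 of 9 genes were called higher and 1 lower. In that comparison 2430 genes were called higher and 2152 lower of 15290 tested. No member changed direction when a library was left out.

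The libraries of a group were ordered alike across these genes. Of the 8 genes with a count in every library, control 3 was the highest control for 8 and control 1 the lowest for 8. Among the FTO siRNA libraries, FTO siRNA 1 was the highest and FTO siRNA 3 the lowest for 7 of the 8, MYLK being the exception. On a log2 scale against the control mean, TAGLN ran from -0.81 in control 1 to 0.60 in control 3 and CNN1 from -1.33 to 0.65, so the controls alone spanned more than 1 log2 unit. Of 8 hepatocyte markers, control 3 was the lowest control for 8. FTO siRNA 3 was the highest FTO siRNA library for 7 of them, TTR being the exception, and FTO siRNA 2 the lowest for 6. The part of this difference between libraries in the results above was not tested.

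**Figure D3:**
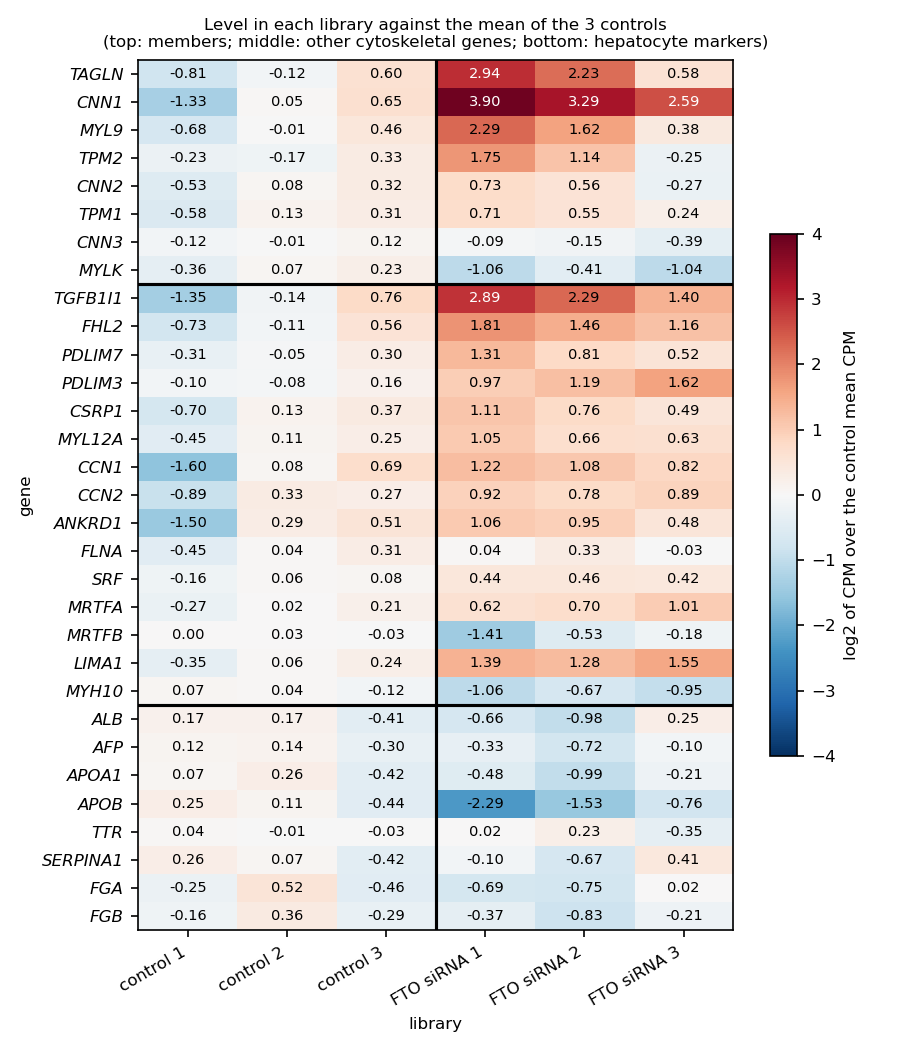
Level of each gene (vertical axis) in each library (horizontal axis) as the log2 of its CPM over the mean of the 3 controls, from blue (lower) to red (higher), with the value printed in each cell. TAGLN runs from 2.94 in FTO siRNA 1 to 0.58 in FTO siRNA 3, where CNN1 keeps 2.59.

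Per kilobase of exon, the order of the mean levels in the controls was TPM2 (136 ± 30.6 CPM per kb), CNN3 (95.2 ± 7.85), CNN2 (90.6 ± 25.7), MYL9 (25.5 ± 9.6), TAGLN (15.4 ± 7.35), TPM1 (8.5 ± 2.52), MYLK (4.01 ± 0.809) and CNN1 (1.65 ± 0.969), with ACTG2 and ACTA2 last. The ± values are SDs between libraries. Since the genes were measured in the same libraries, these SDs do not measure differences between genes, and whether neighbours in this order differ was not tested. After FTO siRNA, CNN1 stood at 16.9 ± 7.36 CPM per kb of exon, above TPM1 (12.1 ± 1.94) and MYLK (2.3 ± 0.625) on this scale. Whether CNN1 and TPM1 differ was not tested. MYL9 (78.9 ± 45.9) and TAGLN (71.3 ± 47.8) then had means just below that of CNN3 (82.9 ± 8.87), which was not tested either. Per kilobase of the longest transcript in place of all exons, TPM1 stood at 27.6 CPM per kb in the controls, above MYL9 at 25.5 and TAGLN at 18.3. By that length CNN2 (146) was above CNN3 (125) in the controls. After FTO siRNA, CNN1 (26.4) was then below TPM1 (39.4), so these orders depend on the length used.

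Among 8323 genes of at least moderate level (average log2 CPM of 4 or more), the 5 whose log2 CPM followed TAGLN most closely over the 6 libraries were TMSB4X (Pearson r = 0.999), MYL9 (0.998), LIMK2 (0.997), DEGS1 (0.996) and F2RL2 (0.996). The 6 points share the group difference and the libraries, and the values are a description. Of the other genes described here, r was 0.945 for TPM2, 0.928 for CNN1, 0.899 for TPM1, 0.884 for CNN2 and 0.867 for ACTG2. CNN3 (-0.057) and MYLK (-0.490) did not follow TAGLN. TMSB4X, which encodes the monomer-binding peptide thymosin beta 4, stood at 93.6, 119 and 163 CPM in the controls and at 429, 339 and 168 CPM after FTO siRNA.

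The closest relatives of these genes were compared as a list of 15 paralogs, of which 12 were tested. ACTC1 and MYL12A rose and none fell, where 7.53% of all genes tested rose and 3.83% fell. The list median was 0.41 beside 0.04 over all genes. Of the 12, 1 was lower at an unadjusted p under 0.05, DESeq2 called 1 lower and limma-voom 0. ACTC1, the cardiac alpha actin, had 1, 1 and 6 counts in the controls and 61, 60 and 43 after FTO siRNA, a ratio of mean CPM of 19.9 (adjusted p = 0.00368). It passed the low count filter only through the FTO siRNA libraries, as ACTG2 did, so its call is no more than that difference in counts. MYL12A, a nonmuscle regulatory light chain, went from 221 to 382 CPM (0.79 ± 0.22, adjusted p = 0.0493), and 9.41% of its 50-base words also occur in other genes. It lost the call without control 1, 2 or 3 or without FTO siRNA 1 or 2, with adjusted p up to 0.198. ACTA1, the skeletal alpha actin, had 1, 1 and 0 counts in the controls and 40, 14 and 3 after FTO siRNA, a ratio of 26.8 with a counting interval from 7.08 to 226. TAGLN3 had 0 counts in the controls and 1, 5 and 3 after FTO siRNA. The abundant nonmuscle forms were not past the threshold: TAGLN2 had a log2 fold change of 0.55 ± 0.20 (adjusted p = 0.121), ACTG1 0.64 ± 0.31 (0.219) and ACTB 0.17 ± 0.37 (0.804). TPM4 (0.44), TPM3 (0.07), MYL6 (0.50), MYL6B (0.21) and MYL12B (0.37) were not past it either. The log2 fold changes of ACTB, TPM3 and MYL6B turned slightly negative without FTO siRNA 1, and that of TPM3 also without FTO siRNA 2. Of the other light chain kinases, MYLK3 went from 5.09 to 2.67 CPM (-0.93 ± 0.29, adjusted p = 0.073), MYLK4 had -0.29 ± 0.32, and MYLK2, at 0.473 and 0.686 CPM, was not tested. The list held 1 called gene without any single control or without FTO siRNA 1, and 6 without FTO siRNA 3.

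**Figure D4:**
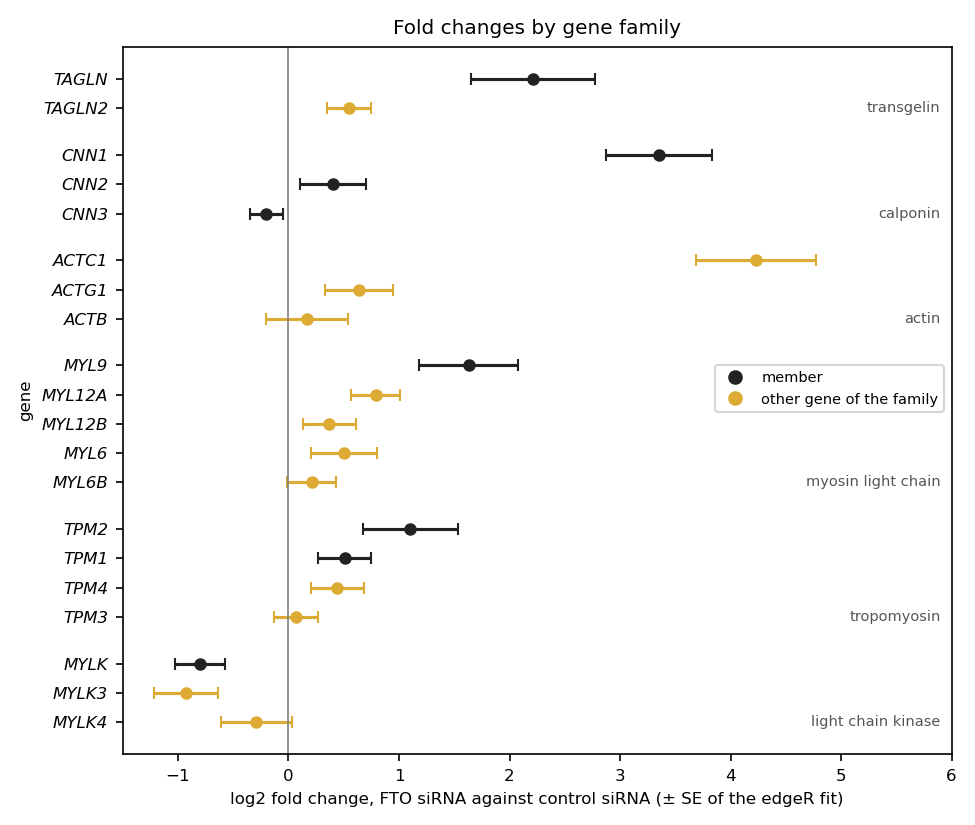
Log2 fold change ± SE of the edgeR fit (horizontal axis) for genes described here (black) and their tested relatives (yellow), grouped by family on the vertical axis. CNN1 (3.35) and ACTC1 (4.23) lie farthest to the right, and MYLK (-0.80) lies on the negative side with MYLK3 (-0.93); ACTG2 and ACTA2 are left out because their controls hold at most 1 count.

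Of 22 other genes of the smooth muscle program, 14 were tested, 4 rose and none fell, with a median of 0.60. Over all genes tested, 7.53% rose and 3.83% fell. In this list 1 was lower at an unadjusted p under 0.05, DESeq2 called 1 lower and limma-voom 0. The log2 fold change was positive for 10 of the 14. It was negative for SYNM (-0.68 ± 0.23, 69.98 to 43.6 CPM), MYH11 (-0.84), PPP1R12B (-0.26) and CALD1 (-0.20). CALD1 had the highest level of the list, with 732 CPM in the controls and 638 CPM after FTO siRNA. PDLIM3 went from 4.69 to 11.4 CPM (adjusted p = 0.0124), FHL2, an SRF-binding protein, from 16.9 to 47.8 CPM (0.0204), TGFB1I1 from 4.69 to 23.4 CPM (0.0261) and PDLIM7 from 113 to 214 CPM (0.0416). Leaving out control 1 or control 2 ended all 4 calls, leaving out FTO siRNA 1 or FTO siRNA 2 ended 3 of them (those of FHL2, TGFB1I1 and PDLIM7), and leaving out control 3 ended that of PDLIM7, with adjusted p up to 0.183.

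The SRF and myocardin-related cofactor list held 16 genes, all tested, of which 6 rose and none fell (0 lower at an unadjusted p under 0.05, 0 by DESeq2 and 0 by limma-voom), with a median of 0.82. The shares over all genes tested were 7.53% higher and 3.83% lower. FHL2 and TGFB1I1 are also in the list before. FOS went from 1.90 to 8.06 CPM (adjusted p = 0.00471), ELK3 from 16.5 to 30.1 CPM (0.00951), EGR1 from 4.69 to 13.4 CPM (0.0226) and the cofactor MRTFA from 50.5 to 86.96 CPM (0.0262). SRF itself, named with MRTFA and MRTFB after their values were seen, went from 61.6 to 83.7 CPM (0.44 ± 0.13, adjusted p = 0.0673) and MRTFB from 43.2 to 28.1 CPM (-0.62 ± 0.27, adjusted p = 0.179). Without FTO siRNA 3, SRF (0.023) and MRTFB (0.0134, as lower) were past the threshold. ELK3 lost its call without control 1 or 2, EGR1 without control 1 or 3, and MRTFA without control 1, 2 or 3 or FTO siRNA 2, with adjusted p up to 0.151. The list held 1 called gene without control 1, 2 without control 2 and 3 without FTO siRNA 2.

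Of 20 focal adhesion and stress fibre genes, LIMA1 (64.2 to 170.5 CPM, adjusted p = 0.00401) and VASP (137 to 228 CPM, 0.0166) rose and MYH10, a nonmuscle myosin heavy chain, fell (305 to 166 CPM, 0.0119), with a median of 0.27. These counts lie near the 7.53% of all genes tested that rose and the 3.83% that fell, and nothing about the list is read from them. VASP lost the call without control 1, 2 or 3 and MYH10 without control 1 or 2, with adjusted p up to 0.115. That list held 1 called gene without control 1 or 2 and 8 without FTO siRNA 3.

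Most of the markers of differentiated smooth muscle were near 0, with SMTN as the exception. Of 8 markers, 5 (DES, LMOD1, MYOCD, KCNMB1 and CASQ2) had no count in any control and at most 7 counts in an FTO siRNA library. All of these but KCNMB1 had a count in every FTO siRNA library, as ACTA2 did. Against the same floor of 3 counts in each control, LMOD1 was at least 1.36-fold and DES at least 1.25-fold higher, and the others did not exceed the floor. The paralog TAGLN3 and the endothelial marker VWF also had no control count and a count in every FTO siRNA library. More genes had a count in the FTO siRNA libraries (24814 to 27140) than in the controls (22990 to 23339). The share of all genes with this pattern was not computed, so nothing is read from it. MYOCD, the cardiac and smooth muscle cofactor of SRF, had 2, 1 and 2 counts after FTO siRNA. MYH11, the smooth muscle myosin heavy chain, had 16, 16 and 10 counts in the controls and 2, 10 and 13 after FTO siRNA (adjusted p = 0.329), so it was not higher where CNN1 and TAGLN were. HSPB6 had 2 to 7 counts in the controls and 3 to 9 after FTO siRNA. SMTN, at 146 and 177 CPM (adjusted p = 0.327), made up nearly all of the list's summed level, which ran from 124 to 174 CPM in the controls and from 164 CPM upward after FTO siRNA. Neither of the 2 tested markers was called, and 0 were under 0.05 unadjusted or called by DESeq2 or limma-voom.

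Markers of other cells were summed in the same way. Calls in these lists stand beside 7.53% of all genes tested called higher and 3.83% called lower. The 8 fibroblast markers ran from 79.1 to 111 CPM in the controls and from 141 to 185 CPM after FTO siRNA; COL1A1 (14.9 to 42.2 CPM, adjusted p = 0.0168) and COL1A2 (19.99 to 50.3 CPM, 0.0183) rose, COL3A1 (0.894), LUM (0.746) and PDGFRA (0.37) were not called, and DCN, THY1 and FAP had no count in any control and at most 6 in an FTO siRNA library. COL1A1 lost the call without control 1 or 2 and COL1A2 without control 1, 2 or 3, with adjusted p up to 0.0922. The 8 pericyte and stellate cell markers ran from 8.59 to 11.3 CPM and from 11.96 to 36.8 CPM, with none of 5 tested called (2 higher at an unadjusted p under 0.05, 0 by DESeq2 and 0 by limma-voom) and HAND2 at 0 in all 6 libraries. The highest of these sums was that of FTO siRNA 3, where NOTCH3 alone stood at 21.15 CPM. In FTO siRNA 1 and FTO siRNA 2 NOTCH3 stood at 2.48 and 3.89 CPM. The 8 immune markers ran from 50.4 to 100.5 CPM and from 75.2 to 108 CPM, and 4 of 5 tested rose, among them PTPRC (2 counts in all controls together, 60 in all FTO siRNA libraries, adjusted p = 0.00192), CD3D (0.00425) and CD74 (0.00471). LYZ, at 46.7 to 97.3 CPM in the controls and 59.8 to 83.5 CPM after FTO siRNA, made up most of that sum. PTPRC, CD3D and the remaining called gene, NKG7, passed the low count filter only through the FTO siRNA libraries. Their calls are no more than that difference in counts. The 6 endothelial markers ran from 20.4 to 25.5 CPM and from 15.0 to 23.9 CPM, with KDR at 0 throughout and the 1 tested gene not called (1 lower at an unadjusted p under 0.05, 0 by DESeq2 and 0 by limma-voom). The 8 hepatocyte lineage markers ran from 22793 to 32678 CPM in the controls and from 15603 to 27229 CPM after FTO siRNA, with a median of -0.40 and none called in edgeR (1 lower at an unadjusted p under 0.05, 1 by DESeq2 and 1 by limma-voom). The gene called by DESeq2 and limma-voom was APOB, at 6890 and 2616 CPM (-1.40 ± 0.41, adjusted p = 0.065 in edgeR). The log2 fold changes of the 8 ran from -1.40 for APOB to -0.01 for TTR. The part of these cell type genes in the levels of the contractile genes was not tested.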

How the data were processed

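The authors deposited whole-number counts per gene for each of the 6 libraries. Per the submitters' processing notes, TopHat2 2.0.11, TopHat and HTSeq were used with hg19 and GRCh37; their roles, the annotation and the use of strand are not stated there. All 60483 identifiers were the same in each library, and 56753 matched a GENCODE 29 symbol. The 37 mitochondrial genes had 0 counts in all libraries. Depth was 15713279 to 18390953 counts, so a floor of 3 counts equals 0.163 to 0.191 CPM. Intervals and floors cover counting error only.

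From these counts, edgeR 4.0.16 (R 4.3.3) fitted all 6 libraries by group with TMM factors, filterByExpr and the two-sided quasi-likelihood test, with Benjamini-Hochberg adjustment over 15025 genes at 0.05. Alternatives were other scaling factors, other filters, DESeq2 1.42.0, limma-voom 3.58.1, a replicate block and each library left out. The script was tested on simulated data. The genes and lists were chosen with earlier results of these data known. A further gene list is not reported here. The text names FTO, the 10 genes, up to 4 genes with the smallest p per direction and pathway list (every counted paralog), all smooth muscle markers up to 3 of each other marker list (the other fibroblast markers, LYZ, TTR, HAND2 and KDR were added after their values were seen), and the 5 genes most like TAGLN. SRF, MRTFA, MRTFB, NKG7, SYNM, CALD1, PPP1R12B and VWF were named after their values were seen. Gene coordinates are not printed because the build of the identifiers is uncertain; promoter windows come from RefSeq. Shared sequence was counted as 50-base words of the longest transcript found in another gene: 1.89% for CNN2, 1.52% for MYLK, 0.0993% for ACTG2 and 0 for the other 7 genes.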

Additional observations from a re-analysis of the deposited data

How the results depend on the processing

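The counts of genes called higher (1132) and lower (575) ran from 236 to 2430 and from 94 to 2152 with 1 library left out, and DESeq2 called 1029 lower. Of the 10 contractile genes, 2 to 6 were called higher with 1 library left out and 0 to 1 lower; without a low count filter and under DESeq2, 5 were called higher and 1 lower, and upper quartile factors gave 4 higher. With limma-voom, with a replicate block and at 1 CPM or more in 3 libraries, 2 were called higher; TAGLN was lost in the first pair of settings and ACTG2 in the last. With 1 library left out, called genes numbered 1 to 6 for the paralogs (2 with all libraries), 0 to 6 for the smooth muscle program (4), 1 to 8 for the SRF list (6) and 1 to 8 for the adhesion list (3). DESeq2 called 5 in the adhesion list, and RLE factors and limma-voom each left 1 paralog. The log2 fold changes that changed sign were ACTB (-0.09), TPM3 (-0.04) and MYL6B (-0.05) without FTO siRNA 1 and TPM3 (-0.05) without FTO siRNA 2; none of these was called, and without FTO siRNA 3 the values were 0.44, 0.22 and 0.37. Where no construction of the alternative shows the cause, the cause was not tested. At 1 CPM or more in 3 libraries ACTG2 was not tested and has no value. Depth limits ACTA2 and ACTG2, with at most 32 counts in a library.

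The labels do not say whether same-numbered libraries were paired. Deviations of same-numbered libraries from their group means correlated at -0.14, -0.06 and -0.25. With 3 libraries in a group the deviations sum to 0, so these values cannot decide whether libraries shared a batch. With a replicate block, 736 genes were called higher and 305 lower, and 1 paralog and 2 smooth muscle program genes were called; TAGLN was not.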
